A study of Mus musculus with 10 samples.

Results

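Matrix metalloproteinases (MMPs), the secreted and membrane-bound enzymes that cut collagens and other matrix proteins, were followed with their inhibitors and relatives in visceral white adipose tissue (WAT). The genes were Mmp2, Mmp3, Mmp9, Mmp14 and Mmp19, the tissue inhibitors Timp1, Timp2 and Timp3, and the ADAMTS proteases Adamts1 and Adamts2. These 10 genes were taken by symbol from the 47937 genes of each count table, and all 10 were found. mRNA-seq of C57BL/6 mice gave 10 libraries in 4 groups, of which 3 were Mof+/+ and 3 were Mof+/- on a standard diet (SD) and 2 of each genotype were on a high-fat diet (HFD). The Mof+/+ mice are the wild type. The Mof+/- mice lack a working copy of Mof, the gene for a histone H4 acetyltransferase, in every tissue, so the genotype is not limited to adipocytes. SD-fed mice were sampled at 8 weeks, and HFD-fed mice at 27 weeks after 20 weeks of HFD by the sample descriptions. The study's text gives other durations. Diet and age therefore cannot be told apart.

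MMPs are made as inactive precursors and opened by other proteases, and TIMPs block the active enzymes by binding at the catalytic site. MMP14 at the cell surface, together with TIMP2, activates the MMP2 precursor. In WAT this system is known for the remodelling of the collagen around adipocytes while the fat depot grows, and macrophages, stromal progenitors and adipocytes all make parts of it.

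Levels are in CPM, a scale that sets each gene against the total on genes of its own library, and values of a group follow the order of its replicate numbers. Totals ran from 1044355 counts in replicate 1 of HFD Mof+/- to 17171947, so 3 counts, taken as the floor of detection, are 2.87 CPM in the shallowest library and at most 0.542 CPM in the other nine. Mof itself (Kat8) was at 20.4 to 21.5 CPM on SD in Mof+/+ and 11.5 to 18.8 CPM in Mof+/-. On HFD its level was 18.1 and 19.2 CPM in Mof+/+ but 20.1 and 10.5 CPM in Mof+/-, where the first value rests on 21 counts. That library also had 8.44% of its counts on 16 skeletal muscle genes, with all 16 detected, against 0.00642% to 0.201% in the others, and 26.9% on the mitochondrial genome. All 9 adipocyte markers had counts in every library.

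The SD genotypes also differed in sex-linked expression. Xist, the RNA of the inactive X chromosome, had 0 counts in all SD Mof+/+ and all HFD libraries and 46.1 to 139 CPM in SD Mof+/-. The sum of 4 Y-linked genes was 194 to 225 CPM in SD Mof+/+, 0 in SD Mof+/- and 77.6 to 153 CPM on HFD. On SD, genotype and the sex-linked pattern therefore cannot be told apart, and the same holds for diet in Mof+/- and for the interaction. The study's methods name male mice. Column headings inside 2 of the count tables give the third SD libraries the other genotype, and the labels were kept here. In Xist, the Y-linked genes and Kat8 (20.4 CPM in the third library labelled Mof+/+ and 11.5 CPM in the third labelled Mof+/-), these libraries lay with the other libraries of their labels. Under the headings, edgeR called 0 of 13864 genes for genotype on SD, with 232 at an unadjusted p of 0.05, and the log2 fold changes of Mmp9 and Mmp14 were 1.54 and 0.33 (edgeR adjusted p = 0.9998 for both).

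In GRCm38 (GENCODE M21), the genes that passed a test below lie at chr2:164940780-164955850 (Mmp9, 15 exon blocks), chr14:54431612-54445364 (Mmp14, 11), chr10:128790910-128800824 (Mmp19, 9), chrX:20870166-20874735 (Timp1, 6, within Syn1 on the opposite strand) and chr10:86300372-86349506 (Timp3, 8, within Syn3 on the opposite strand). Promoter sequence was available from RefSeq (GRCm38.p6) for 7 of the 10 genes, namely Mmp3, Mmp14, Timp1, Timp2, Timp3, Adamts1 and Adamts2. Since MMP and TIMP promoters are known targets of AP-1, the 250 bases before each start were searched for its motif TGANTCA, which reads the same on both strands. It was present in 1 of these 7 promoters, that of Mmp3, and in 6.75% of all 32851 promoters of the table. The Mmp3 stretch is shown because Mmp3 had the largest fitted difference between genotypes on SD, and that of Timp1 because Timp1 had the largest of the 10 with diet in Mof+/+. Capitals mark the motif, which starts 46 bases before the Mmp3 start site, at chr9:7445572-7445821 on the plus strand. The Timp1 stretch is chrX:20869916-20870165, also on the plus strand, and holds no such letters. Neither match nor absence says whether AP-1 binds there.
Mmp3: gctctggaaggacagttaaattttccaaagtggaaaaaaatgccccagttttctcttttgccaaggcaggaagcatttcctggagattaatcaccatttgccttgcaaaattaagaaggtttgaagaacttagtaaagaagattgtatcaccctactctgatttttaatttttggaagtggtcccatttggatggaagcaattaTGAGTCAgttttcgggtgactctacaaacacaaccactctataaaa
Timp1: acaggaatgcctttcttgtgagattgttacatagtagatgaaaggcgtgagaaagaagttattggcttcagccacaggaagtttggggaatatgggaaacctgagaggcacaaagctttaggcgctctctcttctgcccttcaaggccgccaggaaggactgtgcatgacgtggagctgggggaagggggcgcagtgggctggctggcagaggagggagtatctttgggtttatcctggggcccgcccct

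Between genes, levels were compared per kilobase of exon. Timp2, the inhibitor that also takes part in MMP2 activation, had the highest mean level in every group. Its mean was 150.1 ± 27.2 CPM per kb (s.d., n = 3) in SD Mof+/+, 171 ± 52.05 (s.d., n = 3) in SD Mof+/-, 152 ± 29.1 (s.d., n = 2) in HFD Mof+/+ and 72.2 ± 34.6 (s.d., n = 2) in HFD Mof+/-. Timp2 did not overlap with the gene ranked next in the first 3 of these groups but did so in HFD Mof+/-, where Mmp3 came next at 57.95 ± 44.4 CPM per kb (s.d., n = 2). In SD Mof+/+ the order went on with Timp3 and Mmp2, whose values overlapped, then Mmp19, Adamts1, Adamts2 and Mmp14, each overlapping the next. Mmp9, Timp1 and Mmp3 were at the bottom there, at 4.98, 4.63 and 1.96 CPM per kb, and also overlapped. Mmp3, the stromelysin that cuts many matrix proteins and opens other MMP precursors, was last of the 10 in SD Mof+/+, rank 4 in SD Mof+/-, rank 9 in HFD Mof+/+ and rank 2 in HFD Mof+/-. Timp1 had rank 2 in HFD Mof+/+, at 53.7 ± 25.5 CPM per kb (s.d., n = 2).

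**Figure D1:**
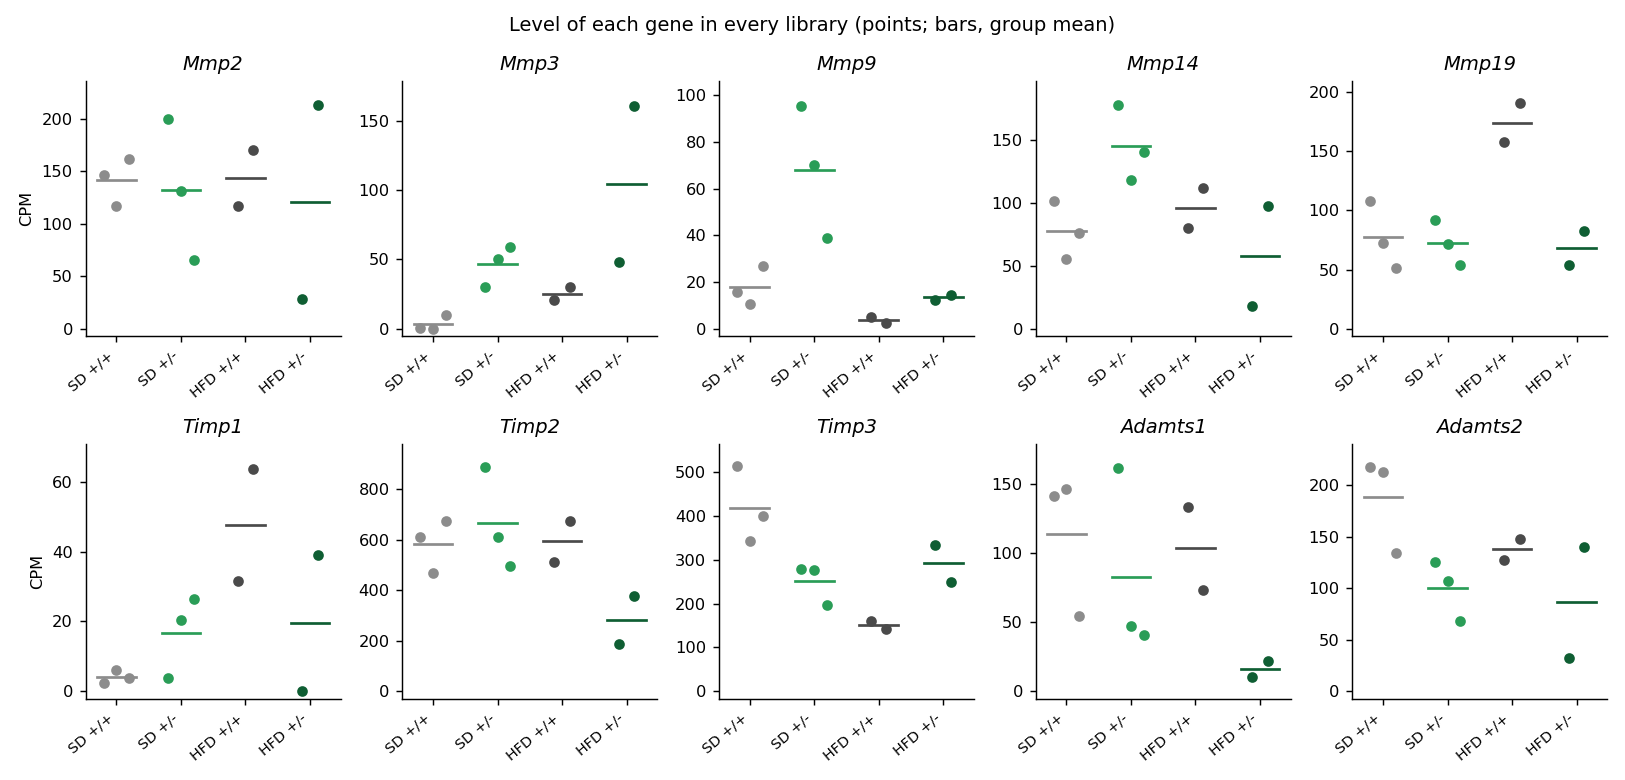
CPM of the 10 genes in every library, with the group on the horizontal axis (SD and HFD, Mof+/+ and Mof+/-), a point for each library and a bar at the group mean. Each panel has its own linear scale that includes 0. Mmp9 and Mmp14 stood higher in all 3 SD Mof+/- libraries than in any SD Mof+/+ library, and the HFD Mof+/- pair lay far apart for Mmp2, Mmp3, Mmp14, Timp1 and Adamts2.

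The first comparison set Mof+/- against Mof+/+ on SD, where genotype cannot be told apart from the sex-linked pattern. Mmp9 and Mmp14 were higher in Mof+/-, and none of the 10 passed the test in the other direction. Both groups were compared with edgeR's quasi-likelihood test, and p-values were corrected (Benjamini-Hochberg) across the 13864 genes in the fit. The 2 of 10 that passed an adjusted p of 0.05 stand beside 5.24% of all genes tested. The median log2 fold change of the 10 genes was 0.40, against -0.07 for all genes.

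Mmp9, the gelatinase that cuts denatured collagen and type IV collagen, was measured at 15.7, 10.4 and 26.7 CPM in SD Mof+/+ and at 95.4, 69.9 and 39.0 CPM in SD Mof+/-. The lowest Mof+/- library was above the highest Mof+/+ library. The difference was 2.30 ± 0.42 on the log2 scale (SE), or 4.92-fold (edgeR adjusted p = 0.0319). Mmp14, the membrane-type collagenase, was at 102, 55.6 and 75.8 CPM in Mof+/+ and 178, 118 and 140.1 CPM in Mof+/-. Again the groups were apart, by 1.26 ± 0.29 on the log2 scale, or 2.40-fold (edgeR adjusted p = 0.0459). Mmp14 missed the threshold when any single library was left out (edgeR adjusted p from 0.0571 to 0.147), with its log2 fold change between 1.08 and 1.515. Mmp9 lost the call without replicate 1, 2 or 3 of Mof+/+ or replicate 2 of Mof+/- (edgeR adjusted p from 0.0606 to 0.153). Its log2 fold change was between 2.01 and 2.71 over the 6 fits that left out a library. In a single fit of all 10 libraries Mmp14 also missed the threshold (edgeR adjusted p = 0.168), while Mmp9 passed it (edgeR adjusted p = 0.0463).

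Mmp3 was at 0.766, 0 and 9.81 CPM in SD Mof+/+ and at 30.05, 50.3 and 59.2 CPM in SD Mof+/-. The values of the first group rest on 6, 0 and 76 counts, and the upper 95% limit for the count of 0 is 0.505 CPM. The groups did not overlap, and the difference of 4.11 ± 1.14 on the log2 scale missed the threshold (edgeR adjusted p = 0.0673). Mmp3 passed without a filter on low counts, and without replicate 3 of Mof+/+ (edgeR adjusted p = 0.0341). That fit sets Mof+/- against 6 counts in all, so its log2 value of 7.20 depends on the prior count. Timp1, the soluble inhibitor of most MMPs but a weak inhibitor of MMP14, was at 2.43, 6.16 and 3.74 CPM in Mof+/+ and 3.67, 20.3 and 26.5 CPM in Mof+/-. Here the first Mof+/- library lay among the Mof+/+ values, and the other two lay above them, for a difference of 2.42 ± 0.77 on the log2 scale (edgeR adjusted p = 0.0942). Timp1 passed without that first Mof+/- library, with a log2 fold change of 2.90 (edgeR adjusted p = 0.0324), without a filter on low counts (edgeR adjusted p = 0.0275) and with DESeq2 (adjusted p = 0.0182). With a length offset its log2 fold change was 1.17 (edgeR adjusted p = 0.336).

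Timp3, the inhibitor that is held in the matrix and also blocks ADAM17 and ADAMTS proteases, was at 515, 343 and 401 CPM in SD Mof+/+ and 279, 278 and 197 CPM in SD Mof+/-. Adamts2, which trims the amino end of procollagens, was at 217, 213 and 134 CPM in Mof+/+ and 125, 107 and 67.8 CPM in Mof+/-. Both genes were without overlap and lower in every Mof+/- library, but neither passed the test, with log2 fold changes of -0.39 ± 0.25 (edgeR adjusted p = 0.367) and -0.57 ± 0.29 (edgeR adjusted p = 0.262). In all, 5 of the 10 genes had groups without overlap, 3 higher and 2 lower, where 40.3% of all genes tested did. When the trend with transcript length was removed, the log2 fold changes of Timp3 and Adamts2 were 0.06 and -0.10. This trend differed between the groups. The Spearman correlation of a library's deviations from the mean with exon length was 0.2845, 0.3126 and 0.225 in SD Mof+/+. In SD Mof+/- it was 0.0789, -0.151 and -0.285. Timp1 and Mmp3 have the shortest exon lengths of the 10 genes (888 and 1801 bases), and Adamts2 and Timp3 the longest (9336 and 8144). Values per kilobase were not corrected for this trend.

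For Mmp2, Mmp19, Timp2 and Adamts1 the SD groups overlapped. Mmp2, the gelatinase activated by MMP14, was at 147, 117 and 162 CPM in Mof+/+ and 199.9, 131 and 65.7 CPM in Mof+/-. Timp2 was at 610.1, 468 and 676 CPM in Mof+/+ and 889, 612 and 494 CPM in Mof+/-. Mmp19 differed by 0.26 ± 0.32 and Adamts1, a protease of the proteoglycans aggrecan and versican, by -0.13 ± 0.56 on the log2 scale.

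Cell type markers moved between these groups too. In summed CPM, 7 mesothelial markers stood at 23.8 to 61.4 in SD Mof+/+ and 169.8 to 360.2 in SD Mof+/-, with 5 to 7 of 7 detected. The sum of 7 endothelial markers, all detected in each library, ran the other way, from 1123 to 2509 against 281 to 411. The 6 mural markers were at 3086 and 6492 CPM in replicates 2 and 3 of Mof+/-, and at 377 to 1106 CPM in the other 4. The 11 macrophage markers overlapped, at 1146 to 2039 and 1735 to 2004 CPM, and so did the 10 stromal progenitor markers, at 4425 to 5841 and 2875 to 7919 CPM. The 9 adipocyte markers summed to 32710 to 39130 CPM in Mof+/+ and 60240 to 89630 CPM in Mof+/-, and the 9 neutrophil and mast cell markers to 20.1 to 36.4 and 58.7 to 132.5 CPM, both without overlap, with 4 to 7 of the latter 9 detected. The 6 ovary and uterus markers were at 3.74 to 13.3 and 18.8 to 97.0 CPM, with 3 to 5 detected, and the 8 myelin and glia markers at 113 to 1149 and 35.5 to 56.7 CPM, with 2 to 8 detected. The part of these markers in the differences above was not tested. In bulk tissue, fewer cells of a type and less RNA per cell cannot be told apart.

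**Figure D2:**
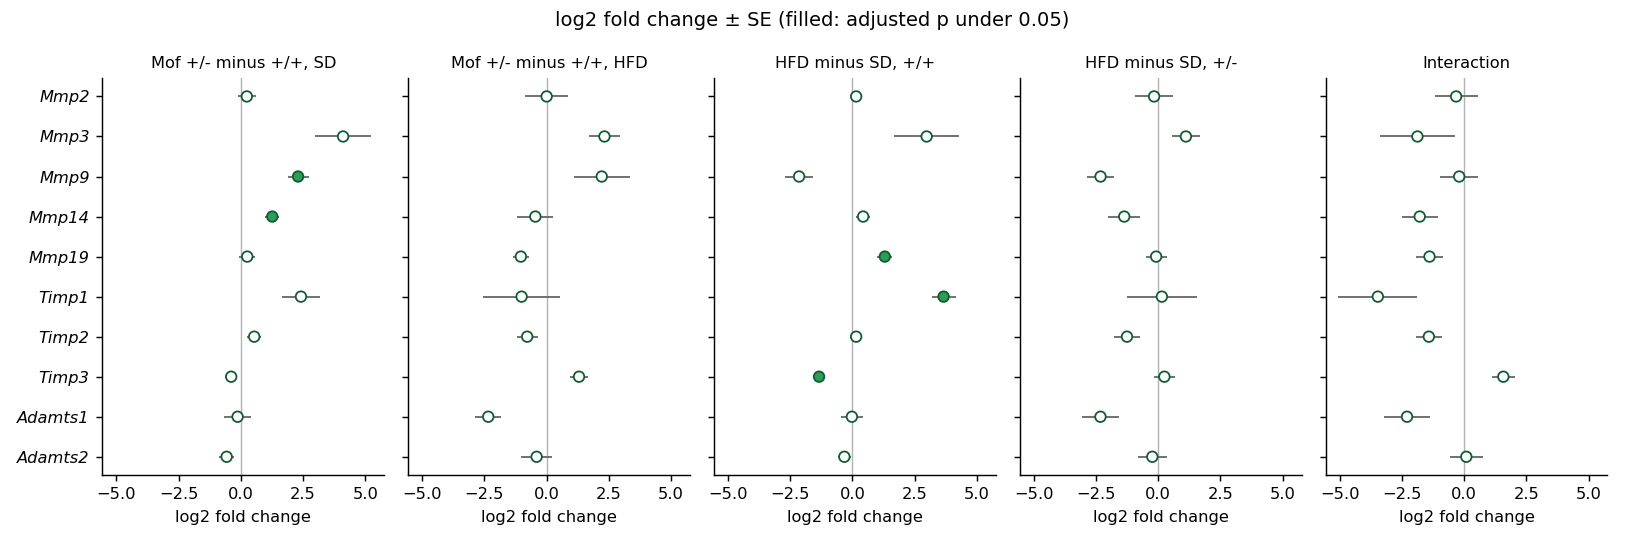
log2 fold change with its standard error (horizontal axis) of the 10 genes in the 4 comparisons of groups and in the genotype by diet interaction, as fitted by edgeR. Filled points passed an adjusted p of 0.05, which were Mmp9 and Mmp14 for genotype on SD and Mmp19, Timp1 and Timp3 for diet in Mof+/+.

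The second comparison set Mof+/- against Mof+/+ in the HFD-fed mice. None of the 10 genes, and none of the 14120 tested (0% called), passed the adjusted threshold with edgeR. At an unadjusted p of 0.05, 4 of the 10 were past it, where 12.3% of all genes were. DESeq2 called 209 genes and none of the 10. Of the 4, Mmp3 and Timp3 were fitted higher in Mof+/- and Mmp19 and Adamts1 lower. With 2 libraries a group, 6 of 10 had groups without overlap, beside 54.4% of all genes. Skeletal muscle markers stood at 80.5 and 90.2 CPM in Mof+/+ and at 84390 and 2014 CPM in Mof+/-, with all 16 detected in both Mof+/- libraries. Other marker sums differed as well, with macrophage markers at 6891 and 9795 CPM in Mof+/+ and 1840 and 3927 CPM in Mof+/-, stromal progenitor markers at 3761 and 4218 against 1416 and 3371 CPM, and neutrophil and mast cell markers at 257 and 326 against 64.2 and 218 CPM. Mural markers were at 511 and 383 CPM in Mof+/+ and 2187 and 516 CPM in Mof+/-. The part of these markers in the values below was not tested.

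Mmp3 stood at 20.8 and 29.8 CPM in HFD Mof+/+ and 47.9 and 161 CPM in HFD Mof+/-, where it was higher in both libraries. Its log2 difference was 2.32 ± 0.61 (edgeR adjusted p = 0.278). Mmp9 was at 4.84 and 2.44 CPM in Mof+/+ and 12.4 and 14.5 CPM in Mof+/-, which gave 2.21 ± 1.13 on the log2 scale (edgeR adjusted p = 0.5885). For Mmp3 and Mmp9, then, both diets showed every Mof+/- library above every Mof+/+ library, though on HFD the first Mof+/- value of Mmp9 rests on 13 counts. Groups did not overlap, in either direction, in 40.3% of all genes on SD and 54.4% on HFD. The share that did so alike on both diets was not counted. On SD the sex-linked pattern goes with genotype.

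Timp3 was at 161 and 142 CPM in HFD Mof+/+ and 334 and 250 CPM in HFD Mof+/-, a log2 difference of 1.30 ± 0.36 (edgeR adjusted p = 0.278). Its direction was the reverse of that on SD. Adamts1 was at 134 and 73.5 CPM in Mof+/+ and at 10.5 and 21.9 CPM in Mof+/-, a log2 difference of -2.35 ± 0.52 (edgeR adjusted p = 0.278). Mmp19, a widely expressed secreted MMP, was at 158 and 191 CPM in Mof+/+ and 53.6 and 83.0 CPM in Mof+/-, a log2 difference of -1.04 ± 0.31 (edgeR adjusted p = 0.28). Timp2 was also lower in both Mof+/- libraries, at 186 and 377 CPM against 513 and 673 CPM. With a length offset the median log2 difference of all genes moved by 1.03, from -0.24 to 0.79, and those of Mmp19 and Timp2 became 0.19 and 0.37, so both stayed below the median gene.

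The remaining genes set the HFD Mof+/- libraries against each other. Mmp2 was at 27.8 CPM in replicate 1 and 214 CPM in replicate 2, around 117 and 170.4 CPM in Mof+/+. Mmp14 was at 18.2 and 97.3 CPM in Mof+/-, beside 79.6 and 112 CPM in Mof+/+. Timp1 had 0 counts in replicate 1 and 39.0 CPM in replicate 2, against 31.7 and 63.7 CPM in Mof+/+. Without replicate 1, the library richer in muscle RNA, 6 of the 10 passed the adjusted threshold, with Mmp2, Mmp3, Mmp9 and Timp3 higher and Mmp19 and Adamts1 lower, while 27.2% of all genes passed. Without replicate 2 all 10 passed, at 47.9% of all genes, with Mmp2 then lower. Either fit leaves a single Mof+/- library, which is assumed to vary like the Mof+/+ pair. When muscle and mitochondrial genes were left out of the totals, every CPM value of replicate 1 was 1.55-fold higher, and those of the other libraries were at most 1.10-fold higher.

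The third comparison set HFD against SD within Mof+/+, where all 5 libraries shared a sex-linked pattern. Timp1 and Mmp19 were higher on HFD and Timp3 was lower, so 3 of 10 passed the adjusted threshold, beside 9.75% of 14939 genes tested. All 3 missed the threshold in a single fit of all 10 libraries (edgeR adjusted p from 0.105 to 0.223), in which 0.893% of all genes passed, and under the column headings (edgeR adjusted p from 0.335 to 0.721). Timp1 rose from 2.43, 6.16 and 3.74 CPM on SD to 31.7 and 63.7 CPM on HFD. Each HFD library was above all SD libraries, by 3.66 ± 0.48 on the log2 scale or 12.6-fold (edgeR adjusted p = 0.00967). Without replicate 2 of HFD Mof+/+ it missed the threshold (edgeR adjusted p = 0.150), at a log2 fold change of 3.08.

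Mmp19 rose from 108, 72.0 and 51.4 CPM to 158 and 191 CPM, by 1.30 ± 0.31 on the log2 scale or 2.46-fold (edgeR adjusted p = 0.0452). It kept the call only without SD Mof+/+ replicate 3 when each library was left out (edgeR adjusted p from 0.03825 to 0.340), and missed it once length was corrected for (edgeR adjusted p = 0.0653). Timp3 fell from 515, 343 and 401 CPM to 161 and 142 CPM, with a log2 fold change of -1.34 ± 0.23, or 2.53-fold lower (edgeR adjusted p = 0.0186). Its call was lost without SD replicate 1 or either HFD library (edgeR adjusted p from 0.0556 to 0.247). Mmp19 shares 789 exon bases with Tmem198b and Timp3 shares 1733 with Syn3, both on the opposite strand. The library kit does not mark strand, so reads in these stretches cannot be told apart.

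Mmp9 had lower values on HFD, at 4.84 and 2.44 CPM against 15.7, 10.4 and 26.7 CPM on SD. The groups did not overlap, and the log2 difference of -2.14 ± 0.57 missed the threshold (edgeR adjusted p = 0.0589). DESeq2, and edgeR without a filter on low counts, called Mmp9 lower, with 19.96% and 8.01% of all genes called. Mmp3 had higher values, at 20.8 and 29.8 CPM against 0.766, 0 and 9.81 CPM, with a log2 difference of 2.98 ± 1.32 (edgeR adjusted p = 0.191). It passed without SD Mof+/+ replicate 3, where 14.85% of all genes did, and with the replicate number as a block, where 9.77% did. Over all alternatives its log2 difference ran from 0.03 to 6.13. In total 5 of 10 genes were without overlap, where 49.1% of all genes were. Mmp2, Mmp14, Timp2, Adamts1 and Adamts2 overlapped between diets, with log2 fold changes between -0.33 and 0.43. Macrophage markers differed strongly in this comparison, since the sum of 11 markers, all detected in each library, was 1146 to 2039 CPM on SD and 6891 and 9795 CPM on HFD. Lymphocyte markers stood at 623 CPM in the third SD library, where 9 of 9 were detected, and at 13.6 to 83.3 CPM in the other 4. Without overlap, endothelial markers were at 1123 to 2509 CPM on SD and 465 and 541 CPM on HFD, mural markers at 677 to 1106 against 383 and 511 CPM, and stromal progenitor markers at 4425 to 5841 against 3761 and 4218 CPM. Myelin and glia markers were at 113 to 1149 against 54.8 and 57.3 CPM, and the mitochondrial genome held 6.26% to 8.82% against 4.23% and 3.13% of counts. Neutrophil and mast cell markers ran the other way, at 20.1 to 36.4 against 257 and 326 CPM. The part of these cells in the diet differences was not tested. The correlation of deviations with exon length also differed, at 0.225 to 0.3126 on SD and 0.0195 and -0.0465 on HFD.

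The last pair of groups set HFD against SD within Mof+/-. No gene of the 10 or of the 13610 tested passed the adjusted threshold with edgeR (0% called). DESeq2 called 399 genes, with Mmp9 among them as lower. At an unadjusted p of 0.05, Mmp9, Timp2 and Adamts1 were past it, all lower on HFD, as 3 of 10 beside 8.57% of all genes. Mmp9 was at 95.4, 69.9 and 39.0 CPM on SD and 12.4 and 14.5 CPM on HFD, a log2 difference of -2.32 ± 0.55 (edgeR adjusted p = 0.282). Timp2 differed by -1.26 ± 0.51 and Adamts1 by -2.32 ± 0.74 on the log2 scale. Together with Mmp14, these made 4 of 10 genes without overlap, all lower on HFD, beside 27.6% of all genes. Skeletal muscle markers went from 64.2 to 121.6 CPM on SD to 84390 and 2014 CPM on HFD. Adipocyte markers were also lower on HFD here, at 18920 and 46460 CPM against 60240 to 89630 CPM, as were mesothelial markers, at 142 and 0.904 CPM against 169.8 to 360.2 CPM, and their part was not tested. Timp1 and Mmp19, which passed with diet in Mof+/+, had log2 differences of 0.15 ± 1.39 and -0.09 ± 0.42 here.

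Whether the genotype difference itself changed with diet was tested as an interaction over all 10 libraries. None of the 10 genes passed, beside 0.0881% of 15897 genes, while DESeq2 called Timp3. At an unadjusted p of 0.05, 5 of 10 were past it, where 12.4% of all genes were. These were Timp3, with an interaction of 1.58 ± 0.45 on the log2 scale (edgeR adjusted p = 0.215), and Mmp14, Mmp19, Timp2 and Adamts1, with interactions of -1.78, -1.39, -1.41 and -2.29. For Mmp3 it was -1.87 (edgeR adjusted p = 0.647) and for Mmp9 -0.19 (edgeR adjusted p = 0.958). The 4 group comparisons share libraries in pairs, so the values of a gene in them are not independent of each other.

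Summed over the 5 MMP genes, the level per kilobase was 96.0, 67.2 and 88.2 CPM per kb in SD Mof+/+, and 159, 126.5 and 102 in SD Mof+/-. The 3 TIMP genes summed to 222.5, 169 and 227 CPM per kb and to 267, 214 and 181. The ratio of MMP to TIMP was thus 0.432, 0.397 and 0.389 in SD Mof+/+ and 0.596, 0.591 and 0.565 in SD Mof+/-. On HFD it was 0.564 and 0.536 in Mof+/+, within the span between those groups, and 0.638 and 1.15 in Mof+/-. No SD Mof+/- library reached down to the Mof+/+ values, and these ratios are given as a description without a test. They leave out other genes of both families, such as Mmp12 and Timp4. In HFD Mof+/+, Mmp12 was at 146.5 and 154.3 CPM per kb, above the sum of the 5 MMP genes (105.6 and 140.5). In HFD Mof+/- it was at 35.7 and 20.0 CPM per kb. Timp4 was at 31.5 and 20.5 CPM per kb in HFD Mof+/+ and 34.1 and 57.5 in HFD Mof+/-. The ratios therefore hold only for the genes summed. Mmp3 made up 0.443%, 0% and 6.18% of the MMP sum in SD Mof+/+, 10.5% to 32.2% in SD Mof+/-, 10.9% and 11.8% in HFD Mof+/+, and 47.0% and 45.45% in HFD Mof+/-. Timp2 held at least 65.96% of the TIMP sum in every library except those of HFD Mof+/-, where it held 53.8% and 56.4%.

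**Figure D3:**
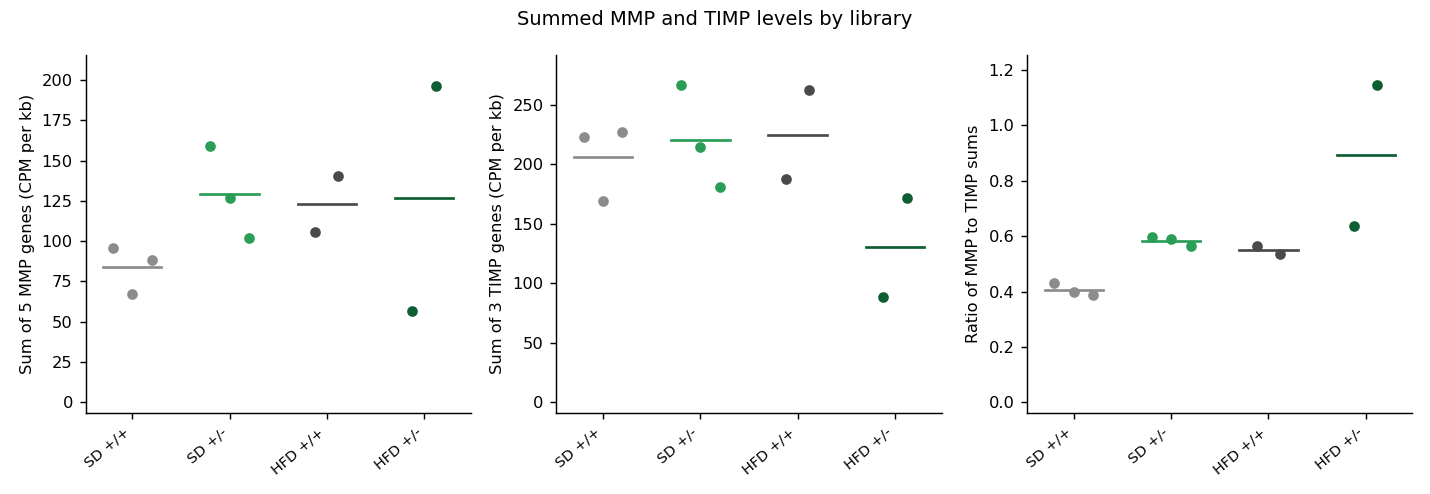
Summed level of the 5 MMP genes, summed level of the 3 TIMP genes (both in CPM per kb of exon) and their ratio, by group on the horizontal axis, with a point for each library and a bar at the group mean. The ratio was 0.389 to 0.432 in SD Mof+/+ and 0.565 to 0.596 in SD Mof+/-, and the highest value, 1.15, was that of HFD Mof+/- replicate 2.

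Of 65 further genes in 5 lists of matrix proteases, activators and inhibitors, 45 were tested between the genotypes on SD, and 4 were higher and 4 lower in Mof+/- past the adjusted threshold, which 5.24% of all genes passed. None of these calls held under the column headings, and most were lost in some other alternatives, whose counts are given at the end. Thbs2, a matricellular protein that helps clear MMP2, was at 16.3, 21.8 and 21.6 CPM in Mof+/+ and at 98.2, 146 and 113 CPM in Mof+/-, with a log2 fold change of 2.94 ± 0.27 (edgeR adjusted p = 0.00475), as the only 1 of 6 inhibitor and clearance genes. Of 6 other MMPs, membrane-type Mmp23 was higher by 1.58 ± 0.28 and membrane-type Mmp15 had a log2 fold change of -1.87 ± 0.39. Of 13 other ADAMTS genes, Adamts15 and Adamts10 were lower, with log2 fold changes of -1.99 ± 0.31 and -1.28 ± 0.29. Of 15 ADAM and activating proteases, Ctsl, a lysosomal cathepsin, was higher by 1.17 ± 0.22, and Furin, the convertase that opens the MMP14 precursor, had a log2 fold change of -1.38 ± 0.25.

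In Mof+/+, 48 of the 65 genes were tested between diets, and 8 were higher and 5 lower on HFD, where 9.75% of all genes passed. Mmp12, the macrophage elastase, was at 49.9, 13.8 and 46.5 CPM on SD and 1060 and 1116 CPM on HFD, with a log2 fold change of 5.02 ± 0.51 (edgeR adjusted p = 0.00478). Of 9 other MMPs tested, the only other to pass was Mmp15, with a log2 fold change of -1.53 ± 0.34. The plasminogen activation list had 3 of 6 genes higher, among them the urokinase receptor Plaur (2.57 ± 0.47) and urokinase itself, Plau (1.048 ± 0.24). Adam8 and the cathepsins Ctss, Ctsk and Ctsl were higher among 15 ADAM and activating proteases, at log2 fold changes of 3.67 ± 0.74, 3.34 ± 0.46, 3.24 ± 0.28 and 1.75 ± 0.19, while the convertases Furin and Pcsk6 were lower, at -1.04 ± 0.17 and -1.28 ± 0.26. Adamts12 (-3.53 ± 0.31) was the only 1 of 12 other ADAMTS genes to pass, and Reck (-1.64 ± 0.40), a membrane-anchored MMP inhibitor, the only 1 of 6 inhibitor and clearance genes. None of the 65 passed between genotypes on HFD, between diets in Mof+/- or in the interaction, with 42, 43 and 50 tested. At an unadjusted p of 0.05 the numbers past it were 11, 12 and 15, where 12.3%, 8.57% and 12.4% of all genes were. DESeq2 called 1, 7 and 8 of them, and 1.48%, 2.93% and 3.06% of all genes.

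**Figure D4:**
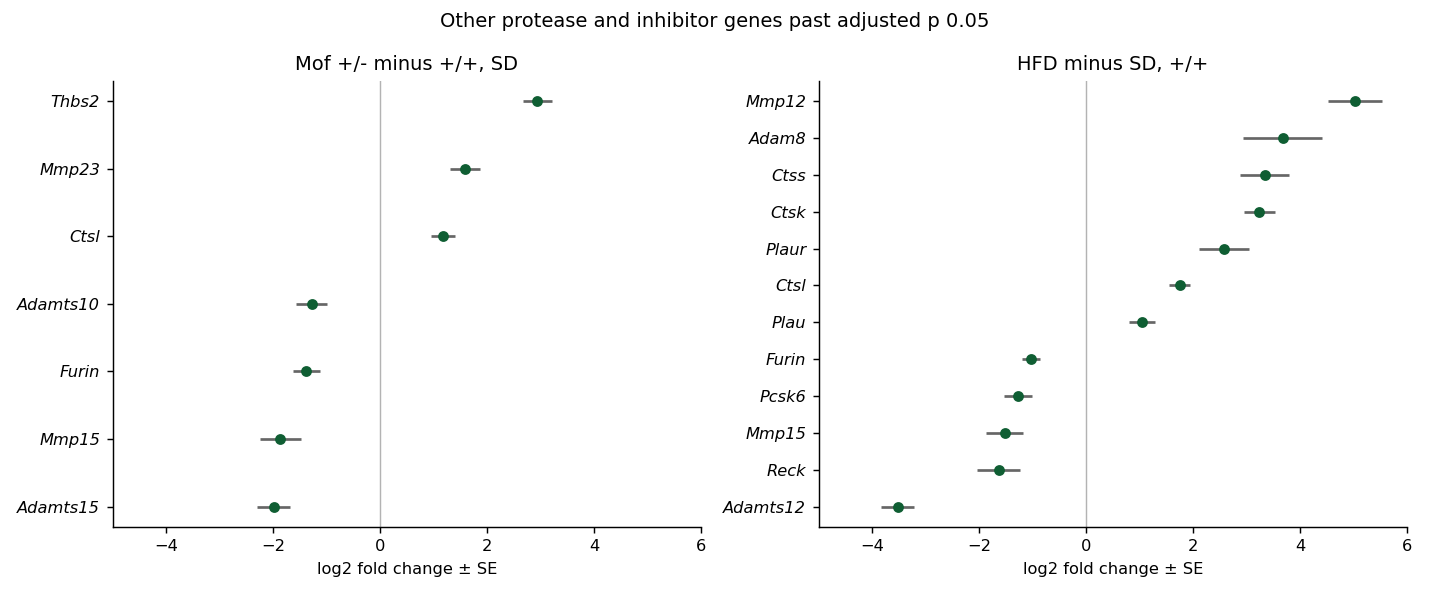
log2 fold change with its standard error (horizontal axis) for genes of the 5 further lists that passed an adjusted p of 0.05 with edgeR, between genotypes on SD (left, 7 genes) and between diets in Mof+/+ (right, 12 genes). The changes ran from -1.99 (Adamts15) to 2.94 (Thbs2) on the left and from -3.53 (Adamts12) to 5.02 (Mmp12) on the right.

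The profile of each gene over the 10 libraries was also set against 11308 genes with a mean of at least 50 counts, by the mean absolute difference of Z-scores, where 0 is the same profile. The 3 nearest profiles to Mmp9 were Net1 (0.241), Acat1 (0.311) and Sult1a1 (0.316), and those to Mmp14 were Apopt1 (0.238), Fzd2 (0.248) and Ier3 (0.249). Mmp3 came nearest to H2-T22 (0.169), Banf1 (0.232) and Nudt19 (0.237), and Timp1 to Cyth2 (0.165), Rab5c (0.171) and Rhoa (0.177). For Mmp19 they were Hmox1 (0.273), Naa20 (0.306) and Alcam (0.329), and for Timp2 Islr2 (0.184), Osr1 (0.186) and Cd248 (0.264). Among the 10 genes themselves the nearest pair was Mmp14 and Timp2, at 0.337. Timp3 stood farther from its nearest gene, Col4a4 (0.349), than any other of the 10 did from theirs. Mmp2 was nearest to Tbl3 (0.235), Adamts1 to Tm9sf4 (0.243) and Adamts2 to Slc35a4 (0.151). These distances rest on 10 libraries that differ in depth, sex-linked pattern and muscle content.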

How the data were processed

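mRNA-seq of visceral WAT was analysed in 10 libraries. The authors prepared polyA libraries, aligned reads to GRCm38 (STAR), counted them by gene with featureCounts (Subread 1.5.0-p1, per the labels) and deposited these raw counts unscaled. Strand setting and annotation release are not given in the sources used here. Versions were dropped from the Ensembl identifiers, and 47224 of 47937 matched a symbol. Exon lengths came from GENCODE M21. Sample labels set the groups. Labels call the libraries biological replicates, and no pair within a group agreed within sampling noise.

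Groups were compared on the libraries concerned with edgeR 4.0.16 (quasi-likelihood test, TMM, filterByExpr) in R 4.3.3, with Benjamini-Hochberg adjustment over all genes tested and a threshold of 0.05. All 10 libraries entered the interaction. The procedure was tested on simulated data. Python 3.11.15, pandas 2.3.3 and matplotlib 3.10.9 were used for tables and figures. Totals of 1044355 to 17171947 counts set the precision, and the floor of 3 counts covers counting error only.

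The 10 genes and all lists were chosen with earlier results of these data known. Named were all 10 genes, of each further list up to 4 genes with the largest change among those past the threshold in a comparison, and the 3 nearest profiles of a gene, shortened to the nearest for 4 genes. Genes of these lists outside this rule were named where they filled a count. Alternatives were DESeq2 1.42.0, its size factors, no filter, the replicate number as a block, all libraries in a single fit, a length offset, TMM without muscle and mitochondrial genes, the column headings, and each library left out. CPM over totals without muscle and mitochondrial genes was added after the data were seen. A gene of the further lists is not reported here singly, though counts for its list include it.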

Additional observations from a re-analysis of the deposited data

Results flagged for a closer look

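Groups of 2 or 3 libraries are too small for a test of single outlying libraries. The results below are those in which every library of a comparison moved one way in one genotype or diet and the opposite way in the other. The share of all genes with such opposite patterns was not counted. Groups did not overlap in 40.3% of all genes for genotype on SD and in 54.4% on HFD. Between diets the shares were 49.1% in Mof+/+ and 27.6% in Mof+/-. None of the interactions of the genes named below passed the adjusted threshold with edgeR in the main fit.

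Timp3 was lower in all SD Mof+/- libraries and higher in both HFD Mof+/- libraries than in Mof+/+, with an interaction of 1.58 on the log2 scale (edgeR adjusted p = 0.215). Mmp15 had the same pattern, and was also lower on HFD in Mof+/+ and higher on HFD in Mof+/-, with an interaction of 2.61 (edgeR adjusted p = 0.193). Serpine2, an inhibitor of serine proteases, was likewise lower in Mof+/- on SD and higher on HFD, with an interaction of 1.73 (edgeR adjusted p = 0.312). Mmp23 and Ctsl were higher in Mof+/- on SD and lower on HFD, with interactions of -1.89 (edgeR adjusted p = 0.193) and -1.97 (edgeR adjusted p = 0.162). On HFD Mmp23 was at 34.55 and 48.5 CPM in Mof+/+ and 29.7 and 27.8 CPM in Mof+/-. Its fitted log2 difference there was -0.20 ± 0.47 (edgeR adjusted p = 0.92). With muscle and mitochondrial genes left out of the totals, CPM rises 1.55-fold in Mof+/- replicate 1 and 1.04-fold in Mof+/+ replicate 1. The HFD groups of Mmp23 then overlap. Between diets, Thbs2, Plau and Plaur were higher on HFD in every Mof+/+ library and lower in every Mof+/- library. Their interactions were -2.35 (edgeR adjusted p = 0.0971), -2.26 (edgeR adjusted p = 0.158) and -4.73 (edgeR adjusted p = 0.192). Replicate 1 of HFD Mof+/-, with 1044355 counts, enters each of these patterns. Without it, the Timp3 interaction was 1.27, and over all alternatives it ran from 1.27 to 2.59.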

How the results depend on the processing

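In the 680 recalculations of log2 fold changes of the 10 genes, 559 kept direction and side of the threshold, 36 newly passed, 30 lost the call and 55 changed sign. DESeq2's size factors and TMM without muscle and mitochondrial genes changed none of them. Counts of the 10 genes called, 2, 0, 3, 0 and 0 for genotype on SD, genotype on HFD, diet in Mof+/+, diet in Mof+/- and interaction, became 4, 0, 4, 2 and 1 without the filter, 3, 0, 4, 1 and 1 with DESeq2, 1, 0, 0 and 0 for the first 4 in a single fit of all libraries, and 0 for the 4 that could be regrouped by column headings. Leaving out a library gave 0 to 2, 0 to 10, 0 to 4, 0 to 1 and 0 to 5. For the 65 further genes, 8, 0, 13, 0 and 0 became 13, 1, 16, 7 and 8 with DESeq2, 13, 0, 14, 5 and 5 without the filter, 3, 0, 4 and 2 in the single fit, 7, 0, 11, 1 and 0 with the length offset, 0 by headings, and 1 to 9, 0 to 27, 2 to 16, 0 to 9 and 0 to 16 without a library. None of the 10 was called on SD without replicate 1 or 2 of SD Mof+/+ or replicate 2 of SD Mof+/-, where 0.13%, 0.239% and 0.116% of all genes were. For genotype on SD, 8.35% of all genes passed without the filter, 15.9% with DESeq2, 1.22% in the single fit and 0% by headings, against 5.24%. For diet in Mof+/+ these shares were 8.01%, 19.96%, 0.893% and 0%, against 9.75%. Without the filter and with DESeq2, 2.10% and 2.93% passed for diet in Mof+/-, against 0%. For the interaction they were 1.62% and 3.06%, against 0.0881%.

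Same-numbered libraries on SD had correlations of deviations of 0.0085, 0.0085 and 0.0326. With 3 libraries a group these values cannot show whether the numbers mark pairs, and no source used here says so. With the replicate block, 1, 1, 3, 0 and 0 of the 10 genes and 6, 3, 12, 5 and 0 of the 65 were called, with Mmp9 not passing on SD (edgeR adjusted p = 0.0517) and Mmp3 in place of Mmp19 for diet in Mof+/+, and the sign changed for Timp1 with diet in Mof+/- (-0.63) and the Adamts2 interaction (-0.0288).

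The length offset moved the median of all genes by 1.03 for genotype on HFD, 0.82 for diet in Mof+/- and 0.88 for the interaction, and by at most 0.04 elsewhere, and DESeq2's size factors moved it by 0.10 for the interaction. Relative to 0, signs then turned for Timp3 (0.0604) and Adamts1 (0.0583) with genotype on SD, for Mmp2 (0.58), Mmp14 (0.41), Mmp19 (0.19), Timp2 (0.37) and Adamts2 (0.52) with genotype on HFD, all below the moved median of 0.79, for Adamts1 (0.0571) with diet in Mof+/+, for Mmp2 (0.24), Mmp19 (0.90) and Adamts2 (0.38) with diet in Mof+/-, and for the Mmp2 (0.26) and Mmp9 (0.93) interactions. By headings, signs turned for Mmp19 (-0.0162) and Timp1 (-0.42) on SD, Mmp14 (-0.16) with diet in Mof+/+, Mmp19 (0.0609) with diet in Mof+/-, and the Mmp3 (1.79), Mmp9 (0.56) and Adamts2 (-0.15) interactions, and without the filter for Adamts1 with diet in Mof+/+ (0.0059). The cause was not tested.

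Without a library, log2 fold changes that turned sign ranged from -1 to 0.19 (Adamts1) and -0.15 to 0.55 (Mmp2) on SD, from -1.98 to 0.74 (Mmp2), -2.00 to 0.19 (Mmp14) and -1.69 to 0.19 (Adamts2) for genotype on HFD, from -0.49 to 0.36 (Adamts1), -0.14 to 0.42 (Mmp2) and -0.0498 to 0.36 (Timp2) for diet in Mof+/+, from -2.13 to 0.59 (Mmp2), -0.33 to 0.10 (Mmp19), -10.25 to 1.08 (Timp1, the lowest set by the prior count), -0.12 to 0.52 (Timp3) and -1.50 to 0.38 (Adamts2) for diet in Mof+/-, and from -1.19 to 0.75 (Adamts2), -0.59 to 0.40 (Mmp9) and -2.30 to 0.48 (Mmp2) for the interaction. With 1 library left in a group, it was assumed to vary like the others. At 1044355 counts in HFD Mof+/- replicate 1, levels under 2.87 CPM were not detectable.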
